A study of Homo sapiens with 2 samples.

Results

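The 10 genes described here are 8 feedback inhibitors of EGF receptor signalling and 2 receptors, out of 19775 genes that had at least 1 probe set of their own on the array. The feedback inhibitors are ERRFI1, DUSP1, DUSP4, DUSP5, DUSP6, SPRY2, SPRY4 and SPRED1, and the receptors are EGFR and ERBB2. They were taken by name, and all 28 probe sets that the platform annotation assigns to exactly 1 of them were used. The set was chosen by pathway with the log2 differences between the same 2 arrays known, that of ERRFI1 among them, so the differences below are descriptions and carry no test. The study set MKN28 cells, an established human gastric cancer line, against themselves with the transcription factor SOX2 overexpressed. The cells labelled Sox2 had received SOX2 by lentivirus and were selected with puromycin for 3 to 5 days, while the labels do not say what the cells labelled control received. RNA of each was read on 1 Affymetrix array, so no value has a replicate error.

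EGFR and ERBB2 are receptor tyrosine kinases of the cell surface. When a ligand joins receptors into dimers, adaptor proteins carry the signal to RAS and from there through RAF and MEK to the kinase ERK, which enters the nucleus and drives transcription. Among the genes so induced are inhibitors of the pathway itself, and they act on different steps. ERRFI1 binds the kinase domain of EGFR and ERBB2, SPRY2 and SPRY4 act between the receptor and RAF, SPRED1 brings the RAS-inactivating protein neurofibromin to the membrane, and the DUSP phosphatases remove phosphate from ERK and related kinases. EGFR and ERBB2 are both known in gastric cancer, where ERBB2 is a drug target.

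The promoters of ERRFI1, DUSP6 and SPRED1 are shown because these genes had at least 1 probe set that read 2-fold or more higher in the Sox2-labelled array. That of DUSP1 is shown as the example of an inhibitor that differed little. Each runs from 250 bases before to 50 bases after a gene start and comes from RefSeq on build GRCh38.p14. The table held a promoter for 8 of the 10 genes, all but DUSP4 and DUSP5. Capitals mark, on both strands, ACAANG, which covers the core that SOX proteins bind, TGANTCA of AP-1, TGACGTCA of CREB together with TGACG, which lies within it, and TATAAA.
ERRFI1 promoter, chr1:8026260-8026559, minus strand: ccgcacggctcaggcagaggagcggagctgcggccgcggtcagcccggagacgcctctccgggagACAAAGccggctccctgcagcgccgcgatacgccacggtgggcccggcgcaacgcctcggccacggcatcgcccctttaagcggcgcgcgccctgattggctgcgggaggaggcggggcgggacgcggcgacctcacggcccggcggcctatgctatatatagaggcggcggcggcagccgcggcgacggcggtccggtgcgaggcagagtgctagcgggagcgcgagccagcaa
DUSP6 promoter, chr12:89352452-89352751, minus strand: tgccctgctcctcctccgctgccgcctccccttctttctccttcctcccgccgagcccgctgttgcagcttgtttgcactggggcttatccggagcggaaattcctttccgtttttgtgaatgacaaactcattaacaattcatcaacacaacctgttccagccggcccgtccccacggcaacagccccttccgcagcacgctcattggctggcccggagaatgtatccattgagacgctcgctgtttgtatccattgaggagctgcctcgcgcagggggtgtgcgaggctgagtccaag
SPRED1 promoter, chr15:38252586-38252885, plus strand: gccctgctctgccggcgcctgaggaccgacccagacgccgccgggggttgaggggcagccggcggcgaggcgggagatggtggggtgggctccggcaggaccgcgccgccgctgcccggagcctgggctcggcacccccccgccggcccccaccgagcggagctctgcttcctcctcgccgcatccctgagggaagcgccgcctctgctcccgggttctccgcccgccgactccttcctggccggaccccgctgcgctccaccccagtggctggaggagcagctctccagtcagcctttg
DUSP1 promoter, chr5:172771146-172771445, minus strand: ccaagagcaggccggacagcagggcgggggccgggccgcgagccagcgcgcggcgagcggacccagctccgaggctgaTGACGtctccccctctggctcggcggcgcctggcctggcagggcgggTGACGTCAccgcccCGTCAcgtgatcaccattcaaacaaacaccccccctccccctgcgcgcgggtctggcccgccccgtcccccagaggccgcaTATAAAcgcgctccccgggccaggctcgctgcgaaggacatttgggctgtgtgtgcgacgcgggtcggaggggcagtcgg
ACAANG occurred once in the ERRFI1 promoter, as ACAAAG, and in 35.5% of 35116 promoters of the same length. Among the 8 genes with a promoter it was found in ERRFI1 and SPRY2. DUSP6 and SPRED1 held none of the marked letters in this window. TGACGTCA was found in DUSP1 alone of the 8, and in 1.85% of all promoters. TGANTCA was found in EGFR and ERBB2 of the 8, against 7.71% of all promoters. EGFR and SPRY2 had more than 1 promoter each. A gene was counted if any of its promoters matched, whereas the percentages are per promoter, so the 2 are not like measures. In EGFR the AP-1 matches lay in the promoter at chr7:55109589-55109888, and none in that at chr7:55018767-55019066. These matches describe letters and show no binding.

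Levels are linear intensities per probe set, and differences are log2 intensity in the Sox2-labelled array minus log2 intensity in the control-labelled array. Each probe set pools short probes against part of 1 transcript, and a gene may have several. The intensities had medians of 34.25 in the Sox2-labelled array and 34.26 in the control-labelled array, and a probe set counted as past the level filter if either array reached 34.25. The only spread at hand is technical: probe sets of 1 gene, past the filter, gave a robust SD of 0.28 for the log2 difference of 1 probe set, from 3471 genes. It does not hold the variation between cultures or between arrays. SOX2 itself read 172 in the Sox2-labelled array and 123 in the control-labelled array by its brightest probe set (log2 difference 0.49). Its other probe sets differed by 0.31, -0.023 and -0.46, so the target gene does not settle the labels, and each direction here rests on them. Of the epithelial markers, 6 of 7 passed the filter, and EPCAM stayed under it at 4.96 and 6.32. The summed intensity of all 7 was 460 in the Sox2-labelled array and 498 in the other. The epithelial markers that passed ran from KRT19 at 40.57 and 37.71 to CLDN4 at 148.5 and 166.8, the Sox2-labelled array first. Markers of leukocytes, endothelium and fibroblasts passed in 7 of 8 cases. The sums over all 8 were 7124 and 5533, most of it VIM at 5833 and 4288. The leukocyte marker CD3E passed at 81.96 and 71.43, and the endothelial marker CDH5 at 67.16 and 65.32. The levels of CD3E and CDH5 lie among those of the epithelial markers, so passing the filter does not show expression. Like VIM, the fibroblast markers COL1A1 (557.4 and 576.1) and COL3A1 (418.1 and 374.4) read above all of the epithelial markers. The fibroblast marker DCN, at 68.64 and 54.08, did not. None of these markers differed by 2-fold. All 24 probe sets of the bacterial poly-A RNAs added before labelling read lower in the Sox2-labelled array, by a median of -0.75. Scaling on them would raise the log2 difference of every gene by 0.75, so differences below are relative to the bulk of genes, whose median was -0.0034.

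Of the 10 genes, ERRFI1 was the 1 that was at least 2-fold higher in the Sox2-labelled array among those past the filter, and none was 2-fold lower. Among all 14253 genes past the filter, 2.05% were at least 2-fold higher and 0.645% at least 2-fold lower. Of the calls over all genes 76.0% were upward, and 64.5% after quantile normalization. DUSP6 read higher in the Sox2-labelled array by each of its 3 probe sets, and SPRED1 likewise, but most of these probe sets were dim. EGFR read lower by 7 of 9 probe sets, each by less than 2-fold, a direction relative to the bulk of genes that turned with poly-A scaling (0.60 by the brightest probe set). By their brightest probe sets, 7 of the 10 genes passed the filter. DUSP5, SPRY2 and SPRED1 did not. The probe set nearest above the filter was 1 of EGFR, with a higher intensity of 34.90, and the nearest below it was 1 of SPRED1, at 33.06.

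**Figure D1:**
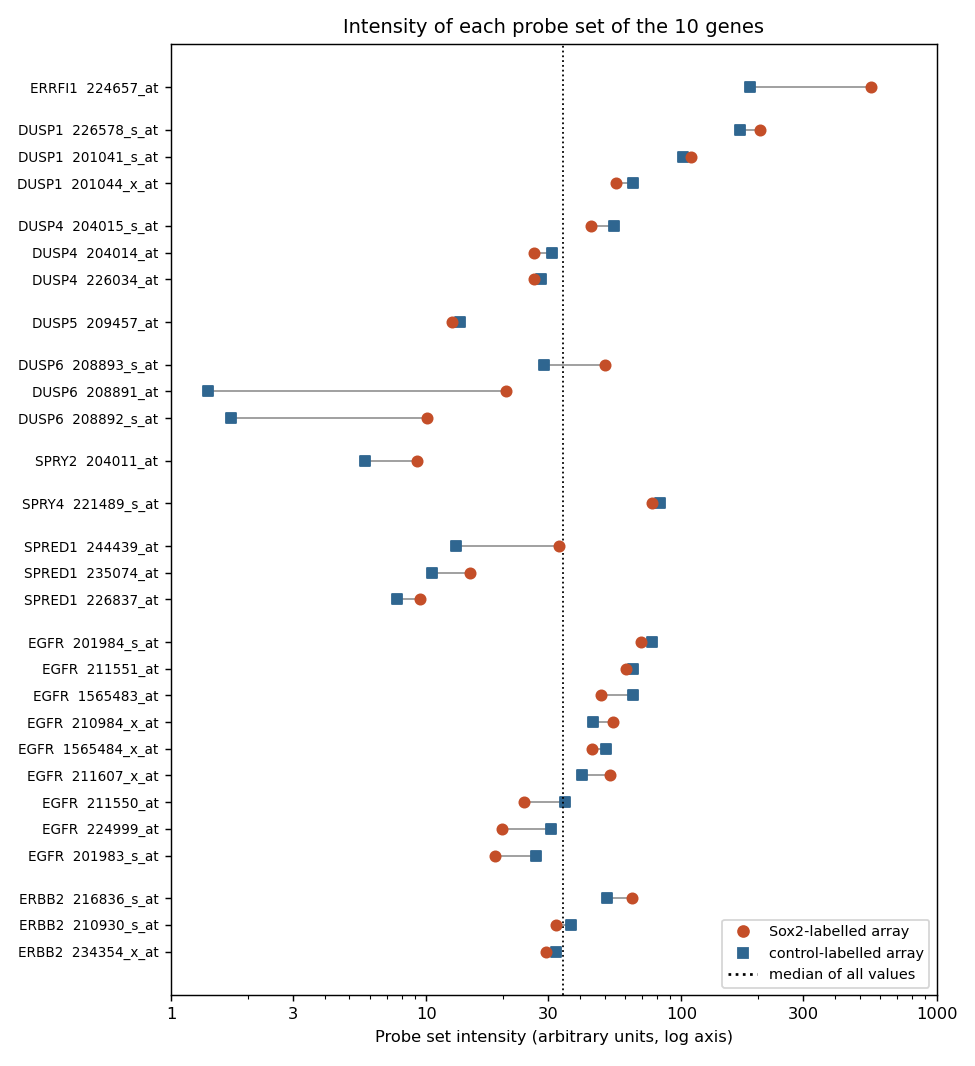
Intensity of each of the 28 probe sets in the Sox2-labelled array (circles) and the control-labelled array (squares), on a log axis, with the median of all values dotted. ERRFI1 stands at 553.8 and 186.1, and 2 probe sets of DUSP6 lie at 1.40 and 1.72 in the control-labelled array.

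ERRFI1, also called MIG6, is the inhibitor that acts on the receptor itself. Its 1 probe set read 553.8 in the Sox2-labelled array and 186.1 in the control-labelled array. The difference was 1.57 on the log2 scale, or 2.98-fold higher. This is 5.68 times the technical SD and the 17th largest upward difference of the 14253 genes. Genes of similar level spread more than that SD: in the bin of 713 genes that holds ERRFI1 the robust SD was 0.47, and 11.9% of them differed by at least 2-fold in either direction. No other probe set of ERRFI1 was there to check the value.

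DUSP6, also called MKP-3, is the cytoplasmic phosphatase that acts on ERK. Its brightest probe set, 208893_s_at, read 50.15 in the Sox2-labelled array and 29.00 in the control-labelled array, a log2 difference of 0.79 or 1.73-fold. It passed the filter through the Sox2-labelled array alone, so its place among the genes past the filter follows in part from the difference itself and nothing is read from it. The same limit holds for the count at 1.5-fold, where DUSP6 joined ERRFI1 and 6.46% of all genes past the filter were counted. It holds too for its level bin of 712 genes past the filter. There the robust SD was 0.27 and 0.702% differed by at least 2-fold. The probe set 208891_at read 20.55 in the Sox2-labelled array and 1.40 in the control-labelled array. The probe set 208892_s_at read 10.08 in the Sox2-labelled array and 1.72 in the control-labelled array. All 3 probe sets therefore lay on 1 side, and the last 2 lay near 1, the lowest intensity in the table, in the control-labelled array.

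The log2 difference of 208891_at was 3.88, the largest upward difference of all 41091 probe sets that name 1 gene. That of 208892_s_at was 2.55. Both were under the level filter, where 2.17% of 18153 probe sets were at least 2-fold higher and 2.12% at least 2-fold lower. Among 5924 probe sets with a mean intensity of 3 to 12, the robust SD of the log2 difference was 0.55. Of 125 probe sets that read under 2 in the control-labelled array, 208891_at was the 1 that reached 20 in the Sox2-labelled array, and their median there was 3.23. The annotation gives the same reference transcript record for these 2 probe sets, so they share a source sequence. Ratios against values of 1.40 and 1.72, next to the floor of the scale, have no firm size, so these differences and the rank describe the table and do not measure how far DUSP6 differed. With 64 added to each intensity before log2, 208891_at differed by 0.37, 208892_s_at by 0.17 and 208893_s_at by 0.30.

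**Figure D2:**
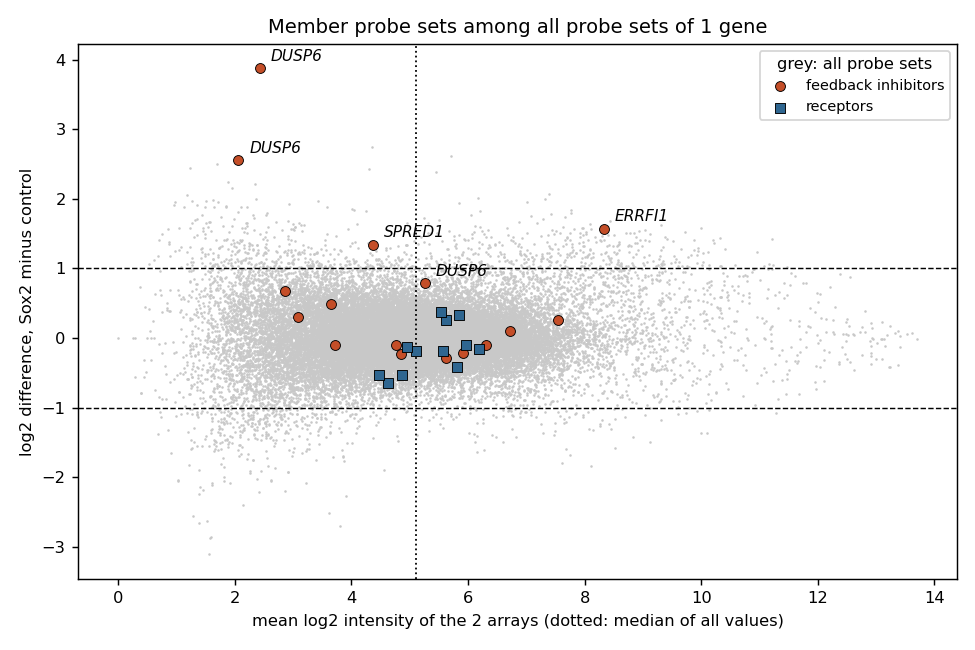
Log2 difference (Sox2-labelled array minus control-labelled array) against mean log2 intensity for the probe sets that name 1 gene (grey), with feedback inhibitors as circles and receptors as squares. Dashed lines mark 2-fold. The topmost point is DUSP6 at 3.88, ERRFI1 stands at 1.57 among bright probe sets, and the receptors lie within the grey band between -0.64 and 0.37.

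SPRED1 read 33.06 in the Sox2-labelled array and 13.03 in the control-labelled array by its brightest probe set, a log2 difference of 1.34 or 2.54-fold. The others read 14.81 and 10.50 (0.50), and 9.45 and 7.68 (0.30), again with the Sox2-labelled array first. All 3 were on 1 side and all under the filter. Of the 2780 genes with 3 probe sets, 14.1% had all 3 higher in the Sox2-labelled array, so such agreement was common. A median as high as that of SPRED1 was seen in 4.89% of them.

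SPRY2 and SPRY4, the Sprouty proteins, had 1 probe set each. SPRY2, which also binds the ubiquitin ligase CBL, read 9.20 in the Sox2-labelled array and 5.75 in the control-labelled array, a log2 difference of 0.68 at a level where the robust SD was 0.55. SPRY4 read 76.82 in the Sox2-labelled array and 82.53 in the control-labelled array, a log2 difference of -0.10, within the technical SD. The value of SPRY2 was under the filter and that of SPRY4 above it.

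The nuclear phosphatases DUSP1, DUSP4 and DUSP5 differed little. DUSP1, which acts on p38 and JNK as well as on ERK, read 203.9 in the Sox2-labelled array and 169.5 in the control-labelled array by its brightest probe set, a difference of 0.27. Its other probe sets differed by 0.11 and -0.22, so they did not share a direction. DUSP4 read 44.34 in the Sox2-labelled array and 54.32 in the control-labelled array, a difference of -0.29. Its other probe sets, both under the filter, differed by -0.22 and -0.095, so all 3 lay below 0 and within about the technical SD of it. DUSP5, which acts on ERK in the nucleus, read 12.67 in the Sox2-labelled array and 13.53 in the control-labelled array (-0.095).

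EGFR was read by 9 probe sets, the most of any of the 10 genes. The brightest, 201984_s_at, read 69.15 in the Sox2-labelled array and 76.99 in the control-labelled array, a log2 difference of -0.15. Of the 9, 7 were lower in the Sox2-labelled array, by between -0.64 and -0.099. The largest of these differences came from 224999_at, at 19.81 in the Sox2-labelled array and 30.86 in the control-labelled array. The 2 that were higher, 211607_x_at and 210984_x_at, differed by 0.37 and 0.26. Their names end in _x_at, the mark of probes that may bind other transcripts. So does that of 1565484_x_at, which was among the 7 lower ones (-0.19), so the ending does not separate the directions. The probe set 211607_x_at read 52.64 in the Sox2-labelled array and 40.75 in the control-labelled array.

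The median over the 9 EGFR probe sets was -0.19. Of 303 genes with at least 7 probe sets, 5.61% had a median as low or lower. No EGFR probe set reached 2-fold in either direction. The brightest read at about the level of the leukocyte marker CD3E, and such a level does not show expression. The lower readings thus shared a direction across most probe sets but stayed small, and 4 of the 9 exceeded the technical SD downward, against 1 upward. That SD comes from probe sets past the filter. Of the 4, 224999_at and 201983_s_at were under the filter, and 211550_at reached it in the control-labelled array alone, so it is a poor yardstick for them.

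ERBB2, the partner receptor with no known ligand of its own, did not show a shared direction. Its brightest probe set read 64.21 in the Sox2-labelled array and 51.23 in the control-labelled array (0.33). The others read 32.32 and 36.95 (-0.19), and 29.45 and 32.23 (-0.13), with the Sox2-labelled array first. The mean over the 3 was 0.00084.

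**Figure D3:**
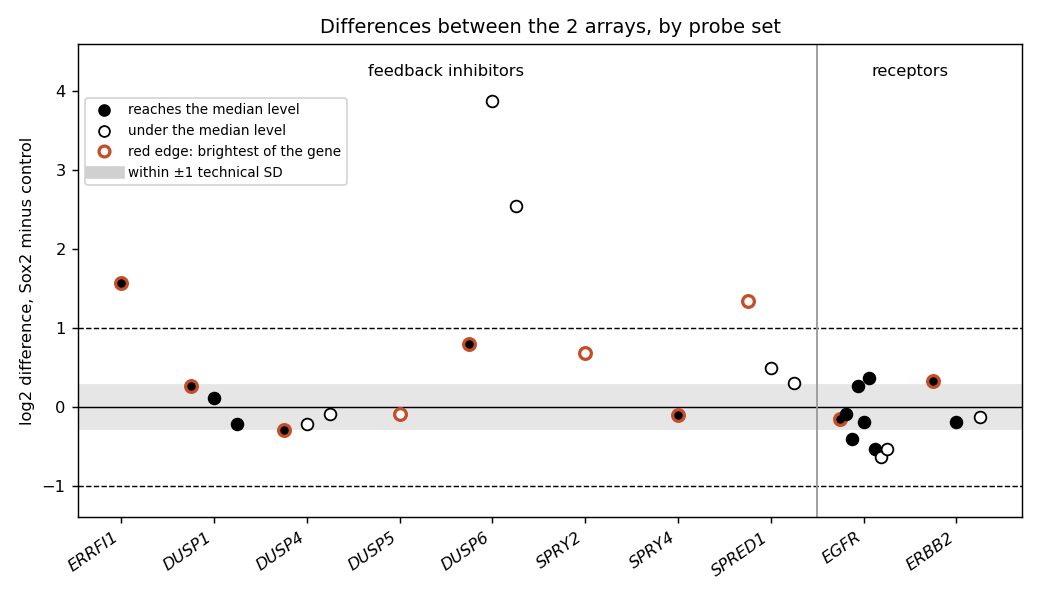
Log2 difference (Sox2-labelled array minus control-labelled array) of each probe set, with the 8 feedback inhibitors left of the 2 receptors. Filled points reach the median level, open points do not, a red edge marks the brightest probe set of a gene, the grey band is 1 technical SD (0.28) either side of 0 and dashed lines mark 2-fold. The points past 2-fold belong to ERRFI1, DUSP6 and SPRED1, and none to a receptor.

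Set beside each other, the 8 feedback inhibitors and the 2 receptors overlapped. By brightest probe sets, the 8 inhibitors ran from -0.29 to 1.57 with a median of 0.47, and EGFR and ERBB2 from -0.15 to 0.33 with a median of 0.085, which was -0.11 when the probe sets of each gene were averaged, against 0.37 for the inhibitors. Over all probe sets, the inhibitors ran from -0.29 to 3.88 and the receptors from -0.64 to 0.37. The difference between the medians was 0.39, from 8 genes on 1 side and 2 on the other. No spread is at hand for it. Over all genes the median of the single-gene differences was -0.0034, which is no yardstick for the 0.39. The median of the inhibitors lay between SPRY2 and DUSP1. Of the 4 genes above it, ERRFI1 reached the filter level in both arrays, DUSP6 in the Sox2-labelled array alone, and SPRED1 and SPRY2 in neither. Of the 8 inhibitors, 5 were above 0, as was 1 of the 2 receptors and 49.5% of all genes. By probe set, 10 of 16 for the inhibitors and 3 of 12 for the receptors were above 0, against 49.9% over all probe sets of 1 gene. Probe sets of 1 gene share a transcript, and 9 of the 12 for the receptors belong to EGFR, so these shares do not count independent readings. With 64 added to each intensity, the medians were 0.13 for the inhibitors and 0.036 for the receptors. Among probe sets past the filter, 4 of 7 for the inhibitors and 3 of 9 for the receptors were above 0. At 2-fold or more there were 4 of 16 probe sets for the inhibitors and 0 of 12 for the receptors, against 2.06% of all probe sets of 1 gene. None of the 28 was 2-fold lower, against 1.23%. Of the 4 that were higher, the ERRFI1 probe set alone passed the filter, and 2 belong to DUSP6 and share a source sequence. The genes were chosen with these differences known, so the counts at 2-fold are descriptions and are not read against those backgrounds.

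The rest of the pathway was taken as lists, by brightest probe sets, and listed genes without a probe set named here were not analysed here. The other receptors of the family, ERBB3 and ERBB4, were both under 2-fold, and ERBB4 differed more, at 59.39 in the Sox2-labelled array and 42.25 in the control-labelled array (0.49). Of 6 ligands past the filter none reached 2-fold, and the median of the 9 measured was 0.043, with 5 above 0 and 4 below. TGFA, a ligand of EGFR, differed most of those past the filter, at 103.6 in the Sox2-labelled array and 72.83 in the control-labelled array (0.51, and 0.25 by another probe set above the filter).

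Of 16 adaptors, RAS proteins and kinases of the cascade past the filter, none reached 2-fold. The median of the 18 measured was 0.14, with 12 above 0 and 6 below. SOS1, the exchange factor that activates RAS, differed most of those past the filter, at 427.3 in the Sox2-labelled array and 250.9 in the control-labelled array (0.77), with 0.17 and 0.38 by its other probe sets past the filter. Of 23 other negative regulators past the filter, 1 was at least 2-fold higher and none lower, which is close to the background of 2.05%. The 1 was RASA2, a GTPase-activating protein for RAS, at 101.5 in the Sox2-labelled array and 49.31 in the control-labelled array (1.04). The median of the 26 regulators measured was 0.054, with 17 above 0 and 9 below.

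Downstream of ERK, a list of transcription factors and target genes was described in the same way. Of 21 past the filter, 6 were at least 2-fold higher in the Sox2-labelled array and none lower, where 2.05% and 0.645% of all genes were counted. The list was written with results of these arrays known, some of its members among them, so the count is a description and is not read against that background. The median of the 22 measured was 0.20, with 15 above 0 and 7 below. Those named next are the largest upward differences of the list. EGR1, a zinc finger factor induced within the first wave after growth factor, read 254.4 in the Sox2-labelled array and 65.61 in the control-labelled array (1.96), but another of its probe sets past the filter differed by -0.82. KLF6, also a zinc finger factor, differed by 1.53, with 0.094 to 1.47 by its other probe sets past the filter. FOSL1 and JUN, subunits of AP-1, differed by 1.40 and 1.34. FOSL1 had no other probe set, and for JUN the remaining ones above the filter gave 0.0073 and 0.92.

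**Figure D4:**
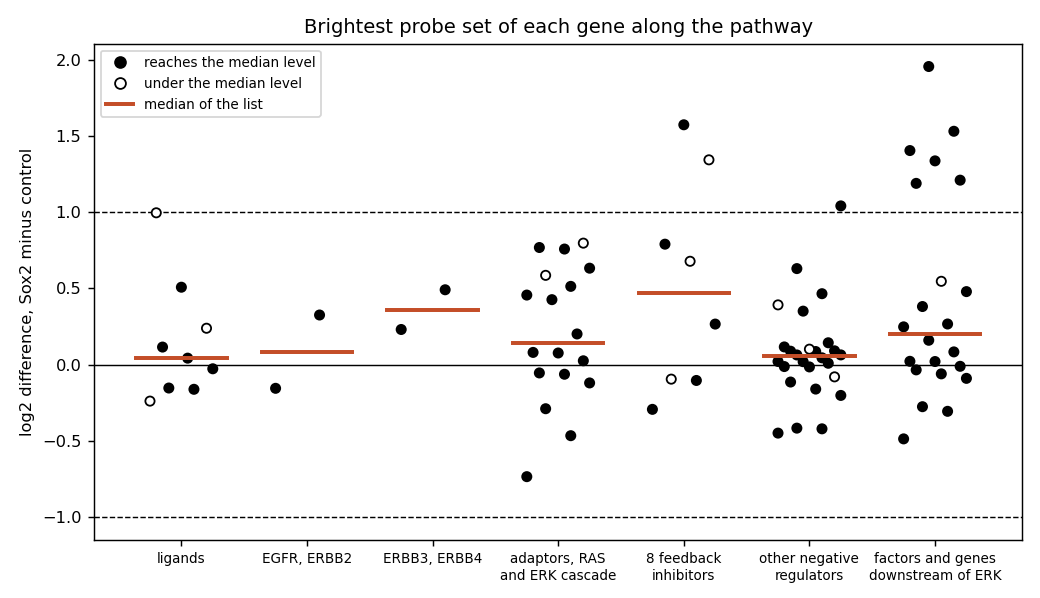
Log2 difference (Sox2-labelled array minus control-labelled array) of the brightest probe set of each gene, by place in the pathway from ligands to factors and genes downstream of ERK. Filled points reach the median level, open points do not, lines are list medians and dashed lines mark 2-fold. Past 2-fold with the level reached are ERRFI1, RASA2 and 6 genes downstream of ERK.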

How the data were processed

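The 2 samples, labelled Sox2 and control, had 1 array each. The authors deposited linear intensities, 1 per probe set and array, made with RMA per the submitters' processing notes, with settings and last step not given in the sources used here. Probe sets were named through the platform annotation, updated by gene ID: of 54675, exactly 1 gene was listed for 41091, several for 1801 and none for 11721, besides 62 control probe sets. Deposited intensities were taken to log2 as they stood. A gene took the value of the probe set whose mean log2 intensity was highest, and the level filter required an intensity of 34.25 in 1 array. With 1 array per group there is no test, and genes were counted at 2-fold. The number of arrays limits the precision, and no depth applies. The named genes are the 10 members and, of each other pathway list, up to 4 of the largest 2-fold differences past the filter, or the 1 largest. With 2 arrays no likeness of pattern between genes could be measured. Members, lists and motifs were chosen with earlier results of these data known. Alternatives were the probe set rule, probe sets ending in _x_at or _s_at, quantile, median and lowess (span 0.3) normalization, 64 added before log2, the level filter and the fold. Scaling on the poly-A RNAs was added after seeing the data. The counting was tested on simulated data. Python 3.11.15 was used with numpy 2.4.6, pandas 2.3.3, statsmodels 0.14.6 and matplotlib 3.10.9.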

Additional observations from a re-analysis of the deposited data

How the results depend on the processing

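ERRFI1 was at least 2-fold higher in the Sox2-labelled array under all 11 alternatives for the count, and no member was 2-fold lower under any. Most of these could not have dropped ERRFI1. With 1 probe set, its value could not change with the probe set rules. The filter settings, median centring, the 1.5-fold threshold and poly-A scaling could not take it out either. Its log2 difference was 1.41 with quantile normalization, 1.49 with lowess and 1.30 with 64 added. The count of members higher was 2 with no level filter (SPRED1 joined), 2 at 1.5-fold (DUSP6 joined) and 4 with poly-A scaling, which moves all genes alike. Over all genes the shares higher were 1.92% with no level filter, 6.46% at 1.5-fold and 20.1% with poly-A scaling. DUSP6 passed the filter through the Sox2-labelled array alone, so nothing is read from its count. The log2 difference of ERRFI1 ran from 1.30 to 2.32. The median of the feedback inhibitors was 1.01 when probe sets with names ending in _x_at or _s_at were left out, where 6 of 8 genes were left, 0.13 with 64 added, which shrinks dim genes, and 1.22 with poly-A scaling, where that of the receptors was 0.84. The median of the receptors was below 0 at -0.11 with averaged probe sets, -0.16 with the largest difference and -0.099 without such endings, where EGFR alone was left. DUSP6 ran from 0.30 to 3.88. Over all genes, 292 of 14253 were counted higher and 92 lower. The counts were 63 and 43 of 11168 with averaged probe sets, and 172 and 61 of 11031 without such endings. They were 96 and 18 of 14254 with 64 added, and 379 and 177 of 19775 with no filter. Of 14253, they were 921 and 537 at 1.5-fold and 2869 and 3 with poly-A scaling. The totals differ, so these counts are not over 1 set of genes. No paired analysis was possible because each group has 1 array. Probe set brightness, not depth, limits DUSP4, DUSP5, DUSP6, SPRY2 and SPRED1, most of whose probe sets were under the filter. It limits EGFR, ERBB2 and SPRY4 as well. Their brightest probe sets passed the filter, but at levels near or under those of CD3E and CDH5, which do not show expression.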
